A study of Mus musculus with 113 samples.

Results

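The knockdown of Nr5a2 in mouse embryos at the 2-cell (2C) stage was described from 4 of the 113 samples that the study lists, which were chosen by their titles. They were 2 pools of embryos injected with small interfering RNAs (siRNA) against Nr5a2 (KD) and 2 pools injected with a negative control siRNA (NC). The labels give a wild-type genotype, superovulated mothers and an injection at 20 μM in both groups, while the methods give a lower concentration for each of the several KD siRNAs than for the single NC siRNA. By the methods the embryos came from C57BL/6N females mated to PWK/PhJ males and were taken at the late 2C stage. Each library was made from pooled embryos, so differences between single embryos cannot be seen, and p-values measure only the spread between these libraries. Expression was measured by Smart-seq2, a full-length RNA-seq protocol for few cells, and was deposited as FPKM, that is, fragments normalized to transcript length and to all mapped fragments of the library, for 24006 genes.

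NR5A2, also known as LRH-1, is an orphan nuclear receptor that binds DNA as a monomer, at a short nuclear receptor site extended on its 5′ side. It is known for bile acid and steroid metabolism in liver and gonad, and for activating pluripotency genes in embryonic stem cells. In the mouse, the 2C stage is the time of zygotic genome activation (ZGA), when a minor wave of transcription that begins in the zygote is followed by a major wave in the late 2C embryo while maternal transcripts are cleared. The comparison asks which of these transcripts depend on Nr5a2 at the stage when its own transcription begins.

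The sums of the deposited FPKM ranged from 265390 to 326319, and between 10426 and 11179 genes reached an FPKM of 1. Read counts were not used here, but the spacing of FPKM values under 0.5 gave a relative depth, which was 1.33 in NC replicate 2, 1.87 in KD replicate 1 and 1.51 in KD replicate 2 when NC replicate 1 was set to 1. The libraries were brought to 1 scale by the median ratio over 6606 genes, with factors between 0.884 and 1.13. The factors did not follow the depths, with 0.964 in NC replicate 1 and 0.884 in NC replicate 2. Such scaling does not remove the extra zeros and noise of shallower libraries. All values below are scaled FPKM unless another quantity is named. Of the 24006 genes, 11874 had a mean scaled FPKM of at least 1 in 1 group and were tested. The NC libraries stood apart from each other. Across the genes tested, Pearson's r of log2(scaled FPKM + 1) was 0.854 between the NC libraries, 0.923 between the KD libraries and between 0.887 and 0.896 for an NC with a KD library. The median gene differed by 0.64 between the NC libraries, by 0.38 between the KD libraries and by 0.35 between the KD and NC means on the log2 scale. The column header of NC replicate 1 names the receptor-family experiment and a separate series of library numbers, so the main counts are also given without it.

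Nr5a2 itself (chromosome 1: 138740161 to 138857004 of mm9, minus strand, protein-coding) was at 20.2 and 27.5 in the NC libraries and at 2.40 and 5.63 in the KD libraries. Its mean was 5.94-fold higher in NC, and the groups did not overlap. The difference of KD minus NC was -2.37 ± 0.49 on the log2(scaled FPKM + 1) scale (SE, n = 2 per group, 95% interval from -3.54 to -1.20), with an unadjusted p of 0.00219 and an adjusted p of 0.999 in limma. With 2 libraries a group an exact permutation test of a single gene cannot go below the p of 0.333 that Nr5a2 reached. At the 8-cell (8C) stage, after injections at 5 μM by the labels, Nr5a2 was at 42.2 and 44.2 in NC and at 7.92 and 17.0 in KD pools.

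None of the other 3 receptors that the study knocked down was called lower. Rarg, a retinoic acid receptor, was at 10.3 and 10.8 in NC and at 17.1 and 12.5 in KD, a difference of 0.44 (95% interval from -0.53 to 1.40). Nr1h3, the oxysterol receptor LXR alpha, was at 4.49 and 22.3 in NC and at 10.1 and 11.2 in KD, so that the KD libraries lay between the NC libraries, and the difference was -0.99 without NC replicate 1 and 1.10 without NC replicate 2. Nr2c2, the orphan receptor TR4, was at 19.9 and 32.1 in NC and at 16.1 and 39.7 in KD, with the NC libraries inside the KD range. Of 30 nuclear receptor genes listed, these 3 included and Nr5a2 left out, 16 were tested and 0 were called by the limits given below. Their median difference was -0.12, beside -0.00333 for all genes tested.

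**Figure D1:**
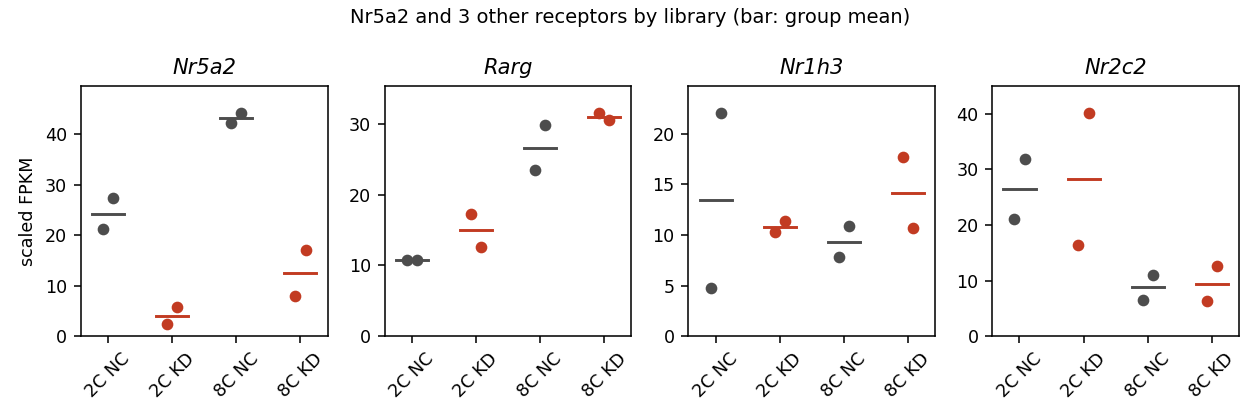
Scaled FPKM of Nr5a2, Rarg, Nr1h3 and Nr2c2 in each library of the 2C and 8C comparisons, with 2 points per group and a bar at the group mean. Nr5a2 sits between 2.43 and 5.69 in the 2C KD libraries and between 21.2 and 27.3 in the 2C NC libraries in this 8-library scaling. Rarg is somewhat higher in both 2C KD libraries, and Nr1h3 and Nr2c2 overlap between 2C KD and NC.

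Of 11874 genes, 2 passed an adjusted p under 0.05 in limma (0.0168%), and both also passed the limits of the study's methods, which ask for an adjusted p under 0.01 and a difference of 2 or more on the log2 scale. Snora78, a small nucleolar RNA gene (chromosome 17: 24856621 to 24856748 of mm9, 128 bases), was at 1691 and 1895 in NC and was listed at 0 in both KD libraries. Defa4, a defensin gene of the gut, was listed at 0 in both NC libraries and was at 414 and 457 in KD. No fold is given for either. Over all 92 libraries with FPKM, Snora78 was listed at 0 in 51 and never between 0 and 755 as deposited, and Defa4 was listed at 0 in 81 and never between 0 and 346, so each gene was either listed at 0 or very high, and a listed 0 can be a failed estimate.

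Genes were therefore also counted, as a description, at an unadjusted p under 0.05 with a log2 difference of at least 1 in size, and are named called below. This gave 402 genes (3.39%), with 171 lower (1.44%) and 231 higher (1.95%) in KD. An unadjusted p under 0.05 alone was reached by 3.51% of genes, where the limit by itself passes 5% of genes that do not differ. The KD libraries lay below both NC libraries in 15.8% of all genes tested and above both in 15.7%, and did so in all 402 called genes. Of the called genes, 395 kept their sign when each library was left out in turn, and 402 of 402 did under each of 3 other scalings. This was nearly fixed in advance, as none of the 402 overlapped between the groups and all differed by at least 1. It is therefore no measure of how stable the calls are. Without NC replicate 1, 87 of 171 genes were still called lower and 139 of 231 higher, and without NC replicate 2 the counts were 90 and 128. Over all genes, 467 were then called lower and 603 higher of 11635 without NC replicate 1, and 442 and 597 of 11600 without NC replicate 2, which is the background for the list counts without 1 NC library below. Without any scaling the split moved to 82 lower and 445 higher genes, as the median of all genes moved by 0.23. List medians below are relative to the scaled median of all genes, and without scaling those of the major ZGA, late 2C, minor ZGA, 2-cell burst, maternal, heat shock, LRH-1 target and nuclear receptor lists turn positive, as does that of the genes lower at 8C.

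With the spread estimated over all 32 libraries of pooled embryos in 1 fit, 110 genes were lower and 169 genes were higher at an adjusted p under 0.05. These included 39 of the 171 and 82 of the 231 called genes, and Nr5a2 with an adjusted p of 0.00829. Snora78 did not pass in that fit (adjusted p = 0.353). The fit assumes that the 2C libraries vary as the 4C and 8C pools do, although the NC libraries at 2C stood apart from each other. Isg15, Atf3, Igtp, Cxcl10 and Lta were listed at 0 in the NC and Nr5a2 KD pools at 8C. Rln1 and Zar1l stayed at 0.658 or less there. For such genes the fit takes its spread in part from pools without the transcript. It can therefore understate the spread at 2C and give too small a p. Apart from Snora78 and Defa4, no gene passed in the fit of 4 libraries.

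The genes with the largest differences among those at a mean of 10 or more were of mixed kinds. Among the lower genes, Pgam2, the muscle form of phosphoglycerate mutase in glycolysis and a major ZGA gene of the study, was at 22.3 and 11.3 in NC and at 2.11 and 0 in KD. Psme1, a subunit of the PA28 activator of the proteasome, was at 14.5 and 18.2 in NC and at 3.79 and 1.94 in KD, with an unadjusted p of 0.00234 in limma. Fam26f was at 7.71 and 15.3 in NC and at 1.97 and 0.844 in KD. All 3 were below both NC libraries in each KD library by the rule that chose them. Pgam2 had an adjusted p of 0.000975 in the fit over all pools.

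Sox15, an HMG-box transcription factor, was at 37.4 and 23.6 in NC and at 17.5 and 2.76 in KD, and its difference of -1.88 was -0.73 without KD replicate 2. Zar1l, a paralog of the maternal factor Zar1 that binds mRNA, was at 13.1 and 13.4 in NC and at 4.00 and 2.28 in KD, with an adjusted p of 0.00781 in the fit over all pools. Rpl22l1, a ribosomal protein paralog, was at 36.6 and 21.0 in NC and at 8.22 and 5.12 in KD. Beside these and Nr5a2 and Snora78, the 15 lower genes held Scarna13, Mmp11, Cox4i2, 3110009E18Rik, Gm21312, Rbp7 and Adrbk1, whose differences lay between -2.55 and -1.82. For several of them 1 library carried much of the difference, which was -0.87 for Scarna13 and -0.76 for 3110009E18Rik without KD replicate 1, -0.95 for Cox4i2 without KD replicate 2 and -1.13 for Mmp11 without NC replicate 2.

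The higher genes were led by transcripts that were near 0 in NC. Both NC libraries were shallower than the KD libraries by relative depth. They had 14143 and 14217 genes above 0, beside 15219 and 15194 in KD. A value at or near 0 in NC, here and in the lists below, cannot be told apart from this difference in depth. Rln1, the hormone relaxin, was listed at 0 in both NC libraries and was at 17.3 and 11.4 in KD, with an adjusted p of 0.385 in the fit of 4 libraries and of 1.49e-05 in the fit over all pools. Isg15, a ubiquitin-like protein that interferon induces, was at 0 and 0.987 in NC and at 17.4 and 9.99 in KD. The adjusted p of Isg15 was 0.999 in the fit of 4 libraries and 1.87e-08 in the fit over all pools. Ifitm1, an interferon-induced membrane protein, was at 2.60 and 4.74 in NC and at 41.1 and 28.3 in KD, a difference of 2.95 ± 0.45. None of the 3 overlapped between the groups, by the rule that chose them.

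Several of the other higher genes rested on NC replicate 2. Xlr4a, an X-linked gene of the Xlr family that was placed in the imprinted list, was at 16.7 and 1.46 in NC and at 25.0 and 47.0 in KD. Gpr50, an orphan receptor related to the melatonin receptors, was at 68.4 and 7.74 in NC and at 125 and 125 in KD. Without NC replicate 2 the difference of Gpr50 was 0.87 in place of 2.35, and that of Xlr4a was 1.01 in place of 2.42. Gm5635, Gm15056, Tgoln2, Tmsb15l, Bex2, Retnlg, Cypt7, A730008H23Rik and L3hypdh completed the 15 higher genes with differences between 2.33 and 4.06, and Gm5635, Gm15056, Tgoln2, Bex2, Cypt7 and A730008H23Rik were at 0 or near it in NC replicate 2 but not in NC replicate 1. Without NC replicate 2 the differences of these 6 genes lay between 1.03 for Tgoln2 and 2.23 for Gm5635, and without NC replicate 1 that of L3hypdh was 1.49 in place of 2.33.

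**Figure D2:**
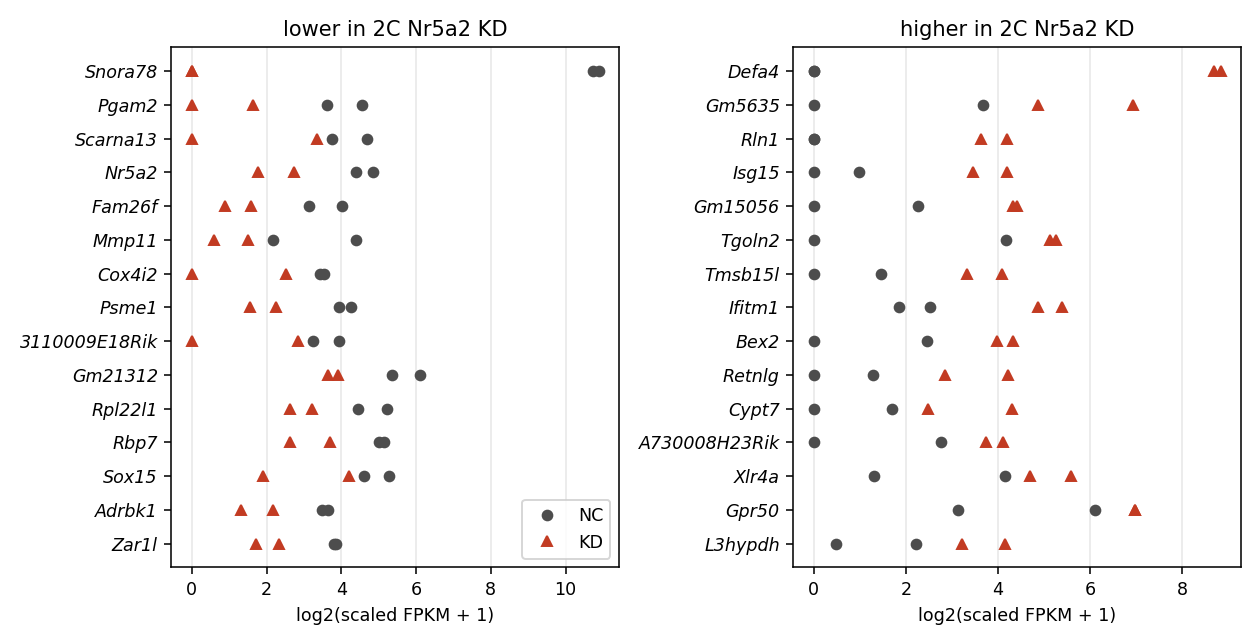
Log2(scaled FPKM + 1) in each of the 4 libraries for the 15 genes with the largest difference in each direction, NC as circles and KD as triangles. The KD points lie on 1 side of the NC points in every row by the rule that chose the genes. The NC points of Xlr4a and Gpr50 lie far apart, and those of Zar1l and Rbp7 lie close together.

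Transcripts of the major wave of ZGA summed to a similar level in both groups. Of 1105 major ZGA genes named by the study, 1103 were tested, and 36 were called lower (3.26%) and 23 called higher, beside 1.44% and 1.95% of all genes. Their median difference was -0.03, and their FPKM summed to 41576 and 45444 in NC and to 40694 and 44095 in KD, so that the KD sums overlapped the NC sums. Among the called members, Pgam2, Nr5a2 and Lta were lower, and Gm5635 was higher. Lta, a cytokine of the tumour necrosis factor family, was at 10.8 and 8.96 in NC and at 2.61 and 0 in KD. Without NC replicate 1 the median was -0.12 and without NC replicate 2 it was 0.01, so its sign differed with the NC library left out. Without scaling 16 were called lower and 45 higher, beside 82 and 445 of all genes. Relative to all genes, lower calls stayed in excess without NC replicate 1 and without scaling. Without NC replicate 2 their share was near that of all genes. In the fit over all pools 6 of the 1103 genes were lower and 3 higher at an adjusted p under 0.05. By the methods these lists were defined on reference embryos and not on these 4 libraries.

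Genes of the late 2C stage were also called in both directions. Of 559 late 2C genes of the study, 556 were tested, 20 were called lower (3.60%, beside 1.44% of all genes) and 14 higher (2.52%, beside 1.95%), and the median difference was -0.02. The counts were 41 and 30 with a median of -0.20 without NC replicate 1, 21 and 32 with a median of 0.10 without NC replicate 2, and 11 and 24 without scaling. Only 7 of 15 genes of the 4-cell stage and 16 of 46 of the 8C stage were expressed enough to be tested, and since a gene near 0 passes the filter through the group where it is higher, no median is given for them. The 1 called gene was Amt of the 4-cell list, named after its values were seen, which was listed at 0 in both NC libraries and was at 1.51 and 1.29 in KD. Of 131 genes of the inner cell mass, 38 were tested, 4 were called higher (10.5%, beside 1.95% of all genes) and 0 lower, with 3 lower and 6 higher without NC replicate 1 and 3 and 3 without NC replicate 2. One of these was Ephx2, the soluble epoxide hydrolase, at 1.53 and 2.02 in NC and at 8.77 and 5.44 in KD. Most genes of the inner cell mass list were not tested, and the filter limits its count of higher genes in the same way.

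Minor ZGA and 2-cell burst genes differed more between the NC libraries than between NC and KD. Zscan4d, a member of the Zscan4 cluster that is transcribed in a burst at the 2C stage, was at 80.6 and 13.8 in NC and at 21.6 and 19.8 in KD. Zfp352, a retrogene of the same burst, was at 222 and 63.3 in NC and at 87.1 and 107 in KD. For these genes the KD libraries lay between the NC libraries. Over the 58 minor ZGA genes tested, the library medians of log2 values, centred on each gene's mean, were 0.54 and -0.42 in NC and 0.06 and -0.07 in KD. The median difference was -0.09, but 0.40 without NC replicate 1 and -0.59 without NC replicate 2, so its sign differed with the NC library that was kept. Over 30 tested 2-cell burst genes it was -0.06, with 0.64 and -0.79 in the same order. The 1 called burst gene was Spz1, at 13.8 and 13.5 in NC and at 5.74 and 6.90 in KD, and the 1 called minor ZGA gene was Tmsb4x, the actin-binding thymosin beta 4, at 60.3 and 56.5 in NC and at 143 and 98.6 in KD.

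Markers placed all 4 libraries at cleavage. Zscan4d and Zscan4c were at 13.7 or more in every 2C library and at 0.545 or less in the 8C pools, in the scaling over the 8 libraries of both stages. Dppa3, a maternal factor that protects DNA methylation, and Obox6, an oocyte and cleavage homeobox gene, were high in all 4 libraries, at 1207 to 1730 and at 327 to 599. Markers of later stages did not separate the stages in that 8-library scaling. Cdx2, a trophectoderm regulator, was at 0.500 or less at 2C and at 0.862 or less at 8C. Krt8 was at 1.84 to 3.80 at 2C and at 3.43 to 26.6 at 8C, and Krt18 at 5.69 to 22.2 and at 6.36 to 24.3. Fgf4 was at 2.73 to 7.24 at 2C and at 2.29 to 5.29 at 8C. Of 23 cumulus and granulosa markers 7 were tested and 0 were called. Amhr2, the receptor of anti-Mullerian hormone, was at 22.3 and 57.7 in NC and at 37.3 and 44.4 in KD, and Kitl, the KIT ligand, was between 3.11 and 4.62 in all 4 libraries. Ptx3 was at 0 in all 4 libraries, Has2 and Star stayed under 1 and Tnfaip6 was between 1.06 and 4.08, while Inhba was at 2.24 in NC replicate 2 and at 0 in the other 3, and Hsd3b1 was at 49.4 in NC replicate 2 and at 0 in the other 3 libraries. The part of these genes' source in the other differences of that library was not tested.

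**Figure D3:**
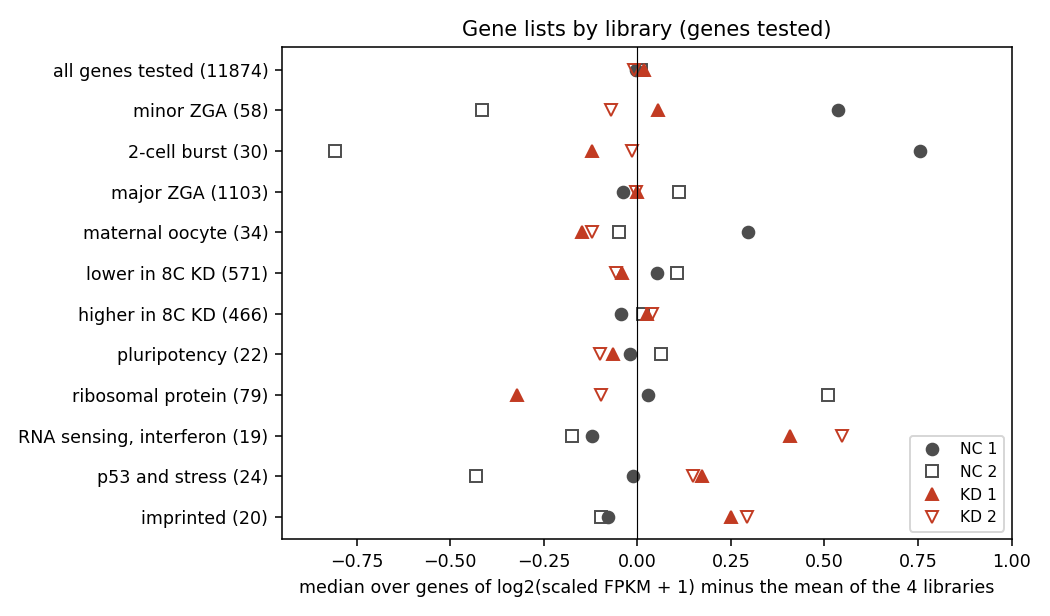
Median over the genes of each list of log2(scaled FPKM + 1), after subtracting each gene's mean over the 4 libraries, with the number of genes tested in brackets and 1 symbol per library. The NC symbols lie at opposite ends for minor ZGA and 2-cell burst genes, while for the RNA sensing and interferon, p53 and stress, and imprinted lists both KD symbols lie above both NC symbols.

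Few maternal transcripts and no oocyte growth factor or zona genes were called. Of 34 tested maternal oocyte transcripts, 2 were called lower (5.88%, beside 1.44% of all genes) and 0 higher, with a median difference of -0.24. The median was -0.04 without NC replicate 1, with 4 called lower and 1 higher, and -0.42 without NC replicate 2, with 8 called lower and 1 higher. The 2 genes were Zar1l, given above, and Npm2, a nucleoplasmin that remodels chromatin of the zygote, at 75.0 and 123 in NC and at 57.1 and 37.5 in KD. Oocyte growth factor and zona genes were high in NC replicate 1, with Bmp15 at 181 there, at 43.7 in NC replicate 2 and at 63.8 and 87.2 in KD, and 0 of 8 were called.

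Among 22 tested pluripotency factors, 1 was called in each direction (4.55% each, beside 1.44% and 1.95% of all genes) and the median difference was -0.26, which was -0.13 without NC replicate 1, -0.11 without NC replicate 2 and -0.03 without scaling. Klf4, a zinc finger factor of the naive state, was at 10.1 and 16.0 in NC and at 4.05 and 4.63 in KD, a difference of -1.37 ± 0.44 that had an adjusted p of 0.352 in the fit over all pools. Mycn was at 2.22 and 1.22 in NC and at 5.51 and 7.28 in KD. Pou5f1, which encodes OCT4 and is a known LRH-1 target in stem cells, was at 18.7 and 25.0 in NC and at 32.0 and 40.5 in KD, a difference of 0.71 ± 0.39 that was not called.

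Lineage regulators and classical LRH-1 targets gave 1 call or fewer per list, beside 1.44% lower and 1.95% higher of all genes. In lists of 7 to 18 tested genes such counts are not read as a result about the lists. Of 18 tested trophectoderm regulators, Esx1, an X-linked homeobox gene of the placenta, was called higher, at 6.88 and 19.3 in NC and at 56.3 and 66.9 in KD. None of 7 tested primitive endoderm regulators was called, with Gata4 at 12.3 and 18.0 in NC and at 11.9 and 11.2 in KD. Of 30 LRH-1 targets known from liver, gonad and stem cells 17 were tested, 0 were called lower and 1 was called higher, with a median difference of -0.01 that was 0.08 without NC replicate 1, with 4 called lower, and 0.13 without NC replicate 2, with 1 called lower. Ccne1, cyclin E1, was at 285 and 241 in NC and at 260 and 284 in KD.

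Genes of RNA sensing and of the interferon response, which cells use against foreign RNA, were called in 1 direction. Of 35 genes listed, 19 were tested, 4 were called higher (21.1%, beside 1.95% of all genes) and 0 lower, and the median difference was 0.42. These were Isg15 and Ifitm1, given above, Cxcl10, an interferon-induced chemokine, and Igtp, an interferon-induced GTPase. Cxcl10 was at 2.06 and 0.574 in NC and at 8.03 and 5.36 in KD, and Igtp was at 1.96 and 1.08 in NC and at 4.94 and 8.71 in KD. Isg15, with an NC mean of 0.493, passed the filter only through the KD group. The count and the median of this list are therefore partly set by the filter. In the fit over all pools Isg15, Igtp and Cxcl10 had adjusted p values of 1.87e-08, 0.00536 and 0.0464, and Ifitm1 one of 0.0622. All 4 had an adjusted p of 0.999 in the fit of 4 libraries. The list median was 0.41 without NC replicate 1, with 1 called lower and 6 higher, and 0.35 without NC replicate 2, with 0 and 4. Both groups were injected with siRNA, of different sequence and, by the methods, at different concentrations, and the part of either was not tested.

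The p53 and stress list gave 4 of 24 tested genes called higher (16.7%, beside 1.95% of all genes) and 0 lower, with a median difference of 0.55. Atf3, a stress-induced transcription factor, was at 1.01 and 0.556 in NC and at 5.69 and 10.5 in KD. Its adjusted p was 0.999 in the fit of 4 libraries and 1.60e-06 in the fit over all pools. With an NC mean of 0.782, Atf3 passed the filter only through the KD group. Gadd45a, a growth arrest gene, was at 18.5 and 37.9 in NC and at 60.9 and 88.8 in KD, and the p53 targets Ccng1 and Sesn3 completed the 4 with differences of 1.26 and 1.13. Cdkn1a, the cell cycle inhibitor p21 and a p53 target, was not called, at 36.0 and 24.0 in NC and at 50.5 and 43.9 in KD, and was chosen after its values were seen. The list median was 0.65 without NC replicate 1 and 0.30 without NC replicate 2, each with 1 called lower and 5 higher. Of 16 heat shock genes 0 were called, with a median of -0.22.

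Imprinted genes and X-linked Xlr genes also had calls upwards. Of 20 tested imprinted genes 4 were called higher (20%, beside 1.95% of all genes) and 1 lower (5%, beside 1.44%), with a median of 0.43 that was 0.39 without NC replicate 1 and 0.30 without NC replicate 2. Snrpn, a paternally expressed splicing protein gene, was at 14.1 and 11.6 in NC and at 61.8 and 43.4 in KD, a difference of 1.93 ± 0.39 with an adjusted p of 0.0117 in the fit over all pools. Usp29, also paternally expressed, was the 1 lower gene, at 5.16 and 8.01 in NC and at 3.32 and 1.07 in KD. Of 10 Xlr genes 3 were called higher (30%), of which Xlr4a and Xlr4c are in the imprinted list too, with a median of 0.61, which was 1.36 without NC replicate 1 and 0.17 without NC replicate 2, with 4 and 1 called higher, and these near-identical copies share reads.

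Ribosomal protein genes were mostly lower in sign. Of 79 tested, 83.5% had a negative difference, 8 were called lower (10.1%, beside 1.44% of all genes) and 0 higher, and the median was -0.44. Rpl13a was at 90.6 and 143 in NC and at 33.6 and 52.6 in KD. The centred library medians were 0.03 and 0.51 in NC and -0.32 and -0.10 in KD, so that NC replicate 1 lay nearer to the KD libraries than to NC replicate 2. The median difference was -0.74 without NC replicate 1, with 19 called lower and 1 higher, and -0.21 without NC replicate 2, with 2 called lower and 2 higher, and in the fit over all pools 0 genes passed. Several of these genes have many processed pseudogenes that share reads with them.

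Other cellular lists had 2 calls or fewer each, beside 1.44% lower and 1.95% higher of all genes. Of 37 tested proteasome subunit genes 0 were called lower and 1 higher, of 56 oxidative phosphorylation subunit genes 1 lower and 0 higher, of 55 ribosome biogenesis genes 1 and 1, of 47 splicing factor genes 1 and 0, and of 39 cell cycle genes 1 and 1. The splicing gene was Snrnp27, a protein of the tri-snRNP particle, at 85.9 and 68.9 in NC and at 27.2 and 18.9 in KD. The lower cell cycle gene was Mcm10, a DNA replication factor, at 15.3 and 13.1 in NC and at 5.26 and 6.29 in KD. Of 45 chromatin regulators 2 were called lower (4.44%), Prmt6, an arginine methyltransferase, at 32.1 and 63.4 in NC and at 19.9 and 15.6 in KD, and Cbx8, a Polycomb subunit, with a difference of -1.22. The RNA interference machinery and the DNA methylation factors had 0 of 15 and 0 of 14 genes called. Of 24 glycolysis genes 1 was called in each direction (8.33% in all, beside 3.39%), with Slc2a8, a glucose transporter, higher at 7.52 and 10.7 in KD and at 3.16 and 4.18 in NC. Of 19 hypoxia genes 1 was called, Egln1, the oxygen-sensing prolyl hydroxylase, lower at 2.56 and 3.22 in KD and at 10.1 and 6.83 in NC.

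The genes that the study lists for Nr5a2 KD at the 8C stage, chosen on other libraries, were then read at 2C. Of 604 genes listed as lower at 8C, 571 were tested at 2C, 18 were called lower (3.15%, beside 1.44% of all genes) and 3 higher (0.525%, beside 1.95%). Their median difference was -0.12, with library medians of 0.05 and 0.11 in NC and of -0.04 and -0.06 in KD. The 18 genes included Nr5a2, Klf4, Sox15, Pramel5 and Adrbk1. Of 474 genes listed as higher at 8C, 466 were tested, 4 were called lower and 8 higher, and the median was 0.05. Without NC replicate 1 the medians of the lists were -0.18 and 0.03, and without NC replicate 2 they were -0.10 and 0.09. Of the genes lower at 8C, 39 were called lower and 18 higher of 569 without NC replicate 1, and 19 lower and 23 higher of 568 without NC replicate 2, so the lean to lower calls did not hold without NC replicate 2. Without scaling the median of the genes lower at 8C was 0.12, beside 0.23 for all genes, and 7 were called lower and 10 higher.

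The signs at 2C were then set beside those at 8C. The 8C libraries, with 2 NC and 2 KD pools, share no sample with the 2C libraries. Of the 402 genes called at 2C, 49.0% had the same sign at 8C, beside 48.5% of all 11874 genes. Of those 402, 28 were called lower and 15 higher at both stages, and 15 were called in opposite directions, while 1088 of the genes tested at 2C were called at 8C. Of all 12631 genes tested over both stages, 5.91% were called lower and 4.12% higher at 8C, 10% in all. The genes called the same way at both stages were 10.7% of those called at 2C and 3.95% of those called at 8C. The 10% counts either direction and is no background for the 10.7%. By direction, 28 of the 171 genes called lower at 2C were called lower at 8C, beside 627 of all 11874 genes. Of the 231 genes called higher at 2C, 15 were called higher at 8C, beside 461 of all 11874.

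Some of the named genes were lower or higher at both stages. Psme1 was at 58.3 and 93.3 in NC and at 2.36 and 0 in KD at 8C, and Cdc42ep5, an effector of the GTPase Cdc42, was called lower at both stages with differences of -2.13 at 2C and -3.80 at 8C. Ifitm1, Gpx2, Fabp3, Crabp1 and I730030J21Rik were called higher at both stages. Crabp1, a retinoic acid binding protein, was at 12.7 and 29.7 in NC and at 63.7 and 110 in KD at 2C. Pramel5 and Pramel6, of the Pramel gene family of the cleavage embryo, were called lower at 2C, with Pramel5 at 31.4 and 22.4 in NC and at 13.2 and 4.10 in KD. At 8C Pramel5 was also called lower, at 278 and 253 in NC and at 5.87 and 46.0 in KD. Pramel6 was not called at 8C, at 319 and 589 in NC and at 84.4 and 519 in KD. The difference between the stages itself had an adjusted p under 0.05 for 2 of 12631 genes (0.0158%). Defa4 was one, at 0 in all 8C pools of this comparison. The other was Khdc3, a maternal gene of the subcortical complex, at 4.45 and 5.36 in NC and at 2.60 and 4.32 in KD at 2C, and at 269 and 239 in NC and at 1.75 and 3.55 in KD at 8C. For Nr5a2 the difference between the stages was -0.58 ± 0.66, with an adjusted p of 0.819.

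**Figure D4:**
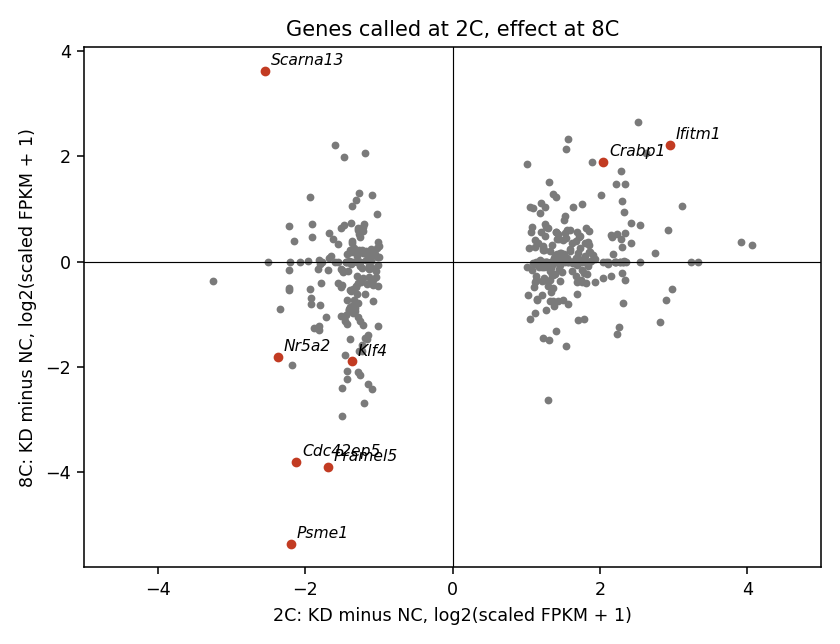
Difference of KD minus NC in log2(scaled FPKM + 1) at 8C against that at 2C for the 402 genes called at 2C, without the 2 genes beyond the x axis (Snora78 and Defa4). The gap in the middle of the x axis is the limit of 1 by which genes were called. The points spread over all 4 quadrants, with Nr5a2, Klf4 and Psme1 low at both stages and Ifitm1 and Crabp1 high at both.

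Single 2C embryos injected with base editor (BE) mRNA and Nr5a2 sgRNA share no library with the knockdown. The labels give 100 ng/μl, and the column header of sgRNA replicate 8 names the 4-cell stage. They were 14 embryos with both, set against 8 embryos with BE alone and 8 with sgRNA alone. Base editing changes the sequence of Nr5a2, and its RNA was not lower, with a median of 24.1 (3.42 to 36.2) in BE + sgRNA embryos, of 17.7 (3.49 to 44.1) in BE embryos and of 13.1 (6.10 to 119) in sgRNA embryos. The difference was 0.20 ± 0.37 (limma, adjusted p = 0.859). Of 12673 genes 1 had an adjusted p under 0.05 (0.00789%), 11.9% had an unadjusted p under 0.05, and 2.21% had an unadjusted p under 0.05 with a log2 difference of at least 1 in size.

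Called genes of the knockdown were read in the edited embryos as a description. Of the 374 called genes that were tested there, 34.0% had the same sign, beside 46.8% of all 11364 genes tested in both. With an unadjusted p under 0.05 in the edited embryos, 10 genes had the same direction and 52 the opposite one, and 43 of those 52 were higher in KD and lower in BE + sgRNA embryos. Esx1, Crabp1 and Ifitm1 were among them, with differences of -2.69, -2.13 and -1.82 in the edited embryos, and Atf3 had -1.21. The same-sign share of called genes was 31.4% and 37.0% within each of the 2 runs of library numbers. It was 33.2% with run as a term and 33.1% without sgRNA replicate 8. The shares over all genes were 47.0%, 47.4%, 46.8% and 46.4% in the same order. Genes of opposite direction numbered 54, 37, 79 and 73 in that order, and those of the same direction 10, 10, 10 and 9. The median difference in the edited embryos was -0.35 for the genes called higher in KD, 0.02 for those called lower and -0.07 for all genes.

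The genes with the same direction included Eif4ebp3, Pick1, Idh1, Ppp1r16b, Cgrrf1 and Arhgdig, which were lower, and Olfr376, Bckdhb and Fam132a, which were higher. Idh1, the cytosolic isocitrate dehydrogenase, was at 9.21 and 5.23 in NC and at 1.05 and 2.89 in KD, and had a median of 2.28 in BE + sgRNA embryos, of 6.66 in BE embryos and of 2.51 in sgRNA embryos. Arhgdig, an inhibitor of small GTPases, was at 15.7 and 15.6 in NC and at 5.96 and 6.53 in KD, and had medians of 4.54, 7.96 and 7.86 in the same order. Fam132a, a secreted adipolin, was at 11.9 and 18.1 in NC and at 30.2 and 33.1 in KD, and had medians of 50.1, 18.4 and 13.3. None of the 10 had an adjusted p under 0.05 in the edited embryos, where that of Fam132a was 0.140.

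**Figure D5:**
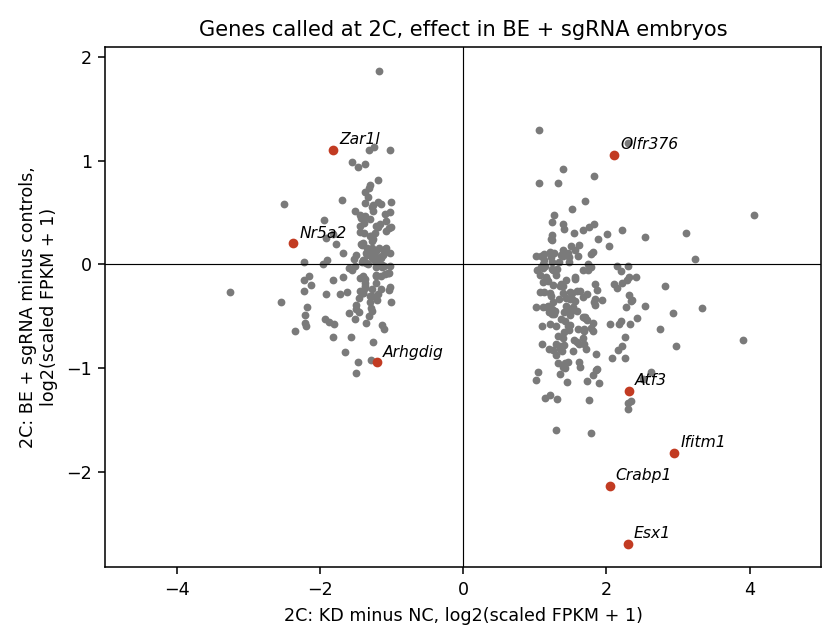
Difference of BE + sgRNA embryos minus the mean of the BE and sgRNA groups against the difference of KD minus NC, both in log2(scaled FPKM + 1), for the genes called in the 2C knockdown and tested in single embryos, without the 2 genes beyond the x axis. Most points on the right lie below 0, among them Esx1, Crabp1 and Ifitm1.

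The promoters of the called genes were searched for the extended site of NR5A2, as CAAGGCCA or CAAGGTCA on either strand, in the 250 bases before the first listed RefSeq start of each gene (GRCm38.p6). Of 9584 tested genes with a promoter in the RefSeq set, 2.44% held 1 of them, and so did 6 of 135 called lower genes (4.44%) and 4 of 185 called higher genes (2.16%), beside 3.26% of all 27025 promoters. As 135 of 171 lower genes is under 80%, the shares are not compared further. The stretches of the 6 lower genes are shown, read along the strand of the gene with the 8 motif letters in capitals, since these are the called lower genes with a match in this window. Pramel5 is named above for its list, and the others were chosen for the motif after their values were seen.
Pramel5 (chr4:144280554-144280601, minus strand): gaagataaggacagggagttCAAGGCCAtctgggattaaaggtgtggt
Poc1a (chr9:106280905-106280952, plus strand): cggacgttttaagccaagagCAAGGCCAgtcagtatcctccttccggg
Arv1 (chr8:124722107-124722154, plus strand): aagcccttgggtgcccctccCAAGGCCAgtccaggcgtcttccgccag
Nmb (chr7:80905188-80905235, minus strand): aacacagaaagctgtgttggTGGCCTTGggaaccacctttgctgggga
Frmpd1os (chr4:45244014-45244061, minus strand): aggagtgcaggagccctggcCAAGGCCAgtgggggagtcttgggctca
Foxk2 (chr11:121259750-121259797, plus strand): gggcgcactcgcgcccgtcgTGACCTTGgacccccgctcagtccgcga
In Nmb and Foxk2 the motif lies on the opposite strand. Their differences in KD were -1.70 for Pramel5, -1.44 for Poc1a, a centriole protein gene, -1.38 for Arv1, -1.31 for Frmpd1os, -1.09 for Nmb, the peptide neuromedin B, and -1.03 for Foxk2, a forkhead factor. A match of letters is a description of the sequence, and binding of NR5A2 there was not tested.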

How the data were processed

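RNA was measured in 2 KD and 2 NC pools of 2C embryos, with 2 KD and 2 NC pools at 8C and 30 single 2C embryos of the base editing experiment for comparison. Per the methods the authors aligned Smart-seq2 reads to mm9 with TopHat and computed the deposited FPKM with Cufflinks from refFlat genes. The submitters' processing notes also name Bowtie2 2.2.2 and CASAVA 1.8. FPKM keep no read counts, so the count test of the study's methods was replaced by limma 3.58.1 in R 4.3.3. Libraries were scaled by the median ratio over genes averaging 5 FPKM or more, genes averaging 1 scaled FPKM or more in 1 group were kept, and log2(scaled FPKM + 1) was tested with a mean-variance trend and Benjamini-Hochberg adjustment over all genes tested. The pseudocount understates fold changes of low genes. The difference between stages was a contrast over 8 libraries. The scripts were tested on simulated data.

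The members, gene lists and tests were chosen with earlier results of these data known. Lists of ZGA, stage and 8C KD genes came from the study, and the ribosomal list leaves out Rps6k kinases. Named were the 4 knocked-down receptors, the 15 largest called differences per direction at a mean of at least 10, per list at most 4 called members at a mean of at least 5 or otherwise at most 3 of the highest level, up to 10 called genes with the same direction in edited embryos, up to 8 genes of the stage difference, up to 8 called at both stages and those past an adjusted p under 0.05. Deviations of same-numbered libraries correlated at 0.00553, so replicate numbers were not taken as pairs. Alternatives were another pseudocount, filters, scalings, a fit over all pools, a replicate block, and leaving out each library. Python 3.11.15 and matplotlib 3.10.9 drew the plots.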

Additional observations from a re-analysis of the deposited data

Results flagged for a closer look

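The difference between the 2C and the 8C effect had an adjusted p under 0.05 in limma for 2 genes. For Defa4 it was 8.79 on the log2 scale, with the gene listed at 0 in all 2C NC and 8C libraries of the comparison. For Khdc3 it was 5.73, with the 8C KD libraries far below the 8C NC libraries and no such gap at 2C. In the sgRNA embryos the highest value of Nr5a2, 119 scaled FPKM, lay far from the others of its group. It belongs to replicate 8, whose column header names the 4-cell stage. How often chance alone gives such a value was not tested.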

How the results depend on the processing

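The difference of Nr5a2 lay between -2.84 and -1.88 when each library was left out in turn and was -2.45 in the fit over all pools. The count at the methods' limits was 29 in the fit over all pools, 1 with no filter and 0 to 0 leaving out each library, and that at an adjusted p under 0.05 was 279 over all pools and 0 to 0 leaving out each library, where fewer libraries remain. Genes called lower numbered 82 without scaling, 343 over all pools, 99 at a mean FPKM of at least 5 and 71 to 569 leaving out each library. Genes called higher numbered 445, 468, 104 and 255 to 604 in the same order. With a replicate block, 2 genes passed an adjusted p under 0.05, and 162 were called lower and 256 higher. For the stage difference the block left 0 genes at the methods' limits and 1 at an adjusted p under 0.05. At the methods' limits that difference gave 3 genes without scaling, 0 with a pseudocount of 0.1 and 0 to 0 leaving out each library. At an adjusted p under 0.05 it gave 5, 6 and 1 to 55, and 1 both with no filter and with quantile normalization, while the unadjusted count lay between 684 and 1976 leaving out each library. In the edited embryos the adjusted count was 0 with BE embryos alone as control, with no filter, within either run and without sgRNA replicate 8, 6 with a pseudocount of 0.1 and 31 with run as a term, and the unadjusted count was 922 with a pseudocount of 0.1, 590 with sgRNA embryos alone as control, and 797 and 439 within the runs. The run alternatives were chosen after seeing the data. Nr5a2 kept its sign under each alternative, while list medians near 0 did not. The cause of these moves was not tested, and 2 libraries a group limit every call.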
